A study of Drosophila melanogaster with 16 samples.

Results

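The cytosolic ribosome of *Drosophila melanogaster* is built from large and small subunit proteins, each encoded by its own RpL or RpS gene. The genes described here are the ones whose symbol begins with RpL or RpS and a digit, or with RpLP, and that had a probeset assigned to a single gene on the array. Of 92 such symbols in the gene table, 41 had a probeset of this kind, out of 11893 genes represented in the same way. The other symbols are not analysed here. Membership was set by the symbol and by no measured value. A gene with several such probesets was represented by the probeset of largest interquartile range over the arrays, which is a measured value. The 41 genes comprised 18 of the large subunit, 15 of the small subunit and 3 of the acidic stalk (RpLP0, RpLP1 and RpLP2). In the other 5 the symbol ends in -like. Their loci were spread over chromosome X and all major autosome arms, with 3 on X, 9 on 2L, 10 on 2R, 5 on 3L and 14 on 3R.

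The study asked how gene expression responds when Wnt signalling is raised or blocked in naïve embryos, which lack the maternal cues that pattern the body axis. All embryos came from mothers mutant for bicoid, nanos and torso-like (alleles bcdE1, nosL7 and tsl146). In the crosses that made the transgenic embryos these mothers also carried the da-Gal4 driver, which is active throughout the embryo, and whether the WT mothers did is not given in the sources used here. RNA of pooled embryos, spanning early to mid embryogenesis, was hybridised to Affymetrix Drosophila 2 arrays, with 2 arrays, labelled biological replicates, for each of 8 genotypes. A pool of whole embryos averages over cell types and ages, so fewer cells of a type and less RNA per cell could not be told apart. WT denotes naïve embryos with no transgene expressed. Wg++ expressed UAS-Wg, the Wnt ligand Wingless, and arm∆N expressed a form of Armadillo, the fly β-catenin, without the N-terminal region that targets it for degradation. DisArmed expressed a dominant-negative Armadillo with its C-terminal activating region removed. Embryos labelled tcf∆N-long or tcf∆N-short expressed HA-tagged TCF without the Armadillo-binding region, and tcf∆N-short in addition lacked the Groucho-binding sequence and the C-clamp. The arm∆N-tcf∆N-short embryos carried both transgenes, and Otk++ embryos overexpressed Offtrack, a Wnt co-receptor.

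Ribosomal proteins assemble with ribosomal RNA in the nucleolus into subunits that are exported and translate all cytoplasmic mRNA. Their mRNAs are among the most abundant in growing cells, begin, in many animals, with a pyrimidine-rich stretch through which the Tor pathway controls their translation, and are commonly regulated as a group. In flies, loss of a single copy of many of these genes gives the Minute phenotype of slow growth and short bristles. Several members have a duplicate, and such duplicates are often restricted to the germ line.

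Values were log2 intensities after GC-RMA, a background correction and normalization carried out by the authors. The whole data set ran from 2.289 to 13.77, and the median over all tested genes lay between 6.11 and 6.31 on the 16 arrays. As a check of the labels, the probeset of otk read 7.62 and 7.67 in Otk++, above every other array, against 6.69 and 7.33 in WT, a log2 difference of 0.64 that did not pass the test (limma, adjusted p = 0.32). Marker genes of maternal egg transcripts, 17 tested, had a mean log2 value of 8.26 and 7.75 in Wg++ against 6.47 and 5.88 in WT. Of them 9 were called higher and 1 lower in Wg++, 58.8% of the list beside 40.8% of all tested genes. Digestive enzyme and other midgut markers, 6 tested, averaged 4.83 and 4.93 in Wg++, with 4 called lower, and 8.40 and 8.40 in tcf∆N-long, with 3 called higher, against 6.90 and 6.53 in WT. These are 66.7% and 50% of the list, beside 40.8% and 3.72% of all tested genes.

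Signal fell into separate bands. In 27 members the mean over all arrays was above 11, and their 432 values all lay between 11.74 and 13.48, while the brightest probeset of each array read between 13.57 and 13.77. In 4 members (RpL34a, RpL7-like, RpS5b and RpL24-like) the mean was between 9 and 11, and in 7 it was lower. The remaining 3, RpL10Aa, RpS10a and RpS28a, read between 2.29 and 2.43 on every array, at the bottom of the scale, and did not pass the filter of a value above 2.5 on at least 2 arrays. Thus 38 of the 41 members entered the fit together with 8822 other genes. All 3 of those below the filter were duplicates of another ribosomal protein gene. RpL10Ab, the partner of RpL10Aa, read 12.997 to 13.19, and RpS28b, the partner of RpS28a, read 12.54 to 12.95. A bright and a dim copy also occurred for RpL37, where RpL37-1 read 12.34 to 12.83 and RpL37-2 read 2.73 to 3.34. Probesets differ in their affinity, so a bright and a dim probeset do not give the ratio of the mRNAs. Near-identical copies can moreover share hybridisation, which makes the split between duplicates uncertain.

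**Figure D1:**
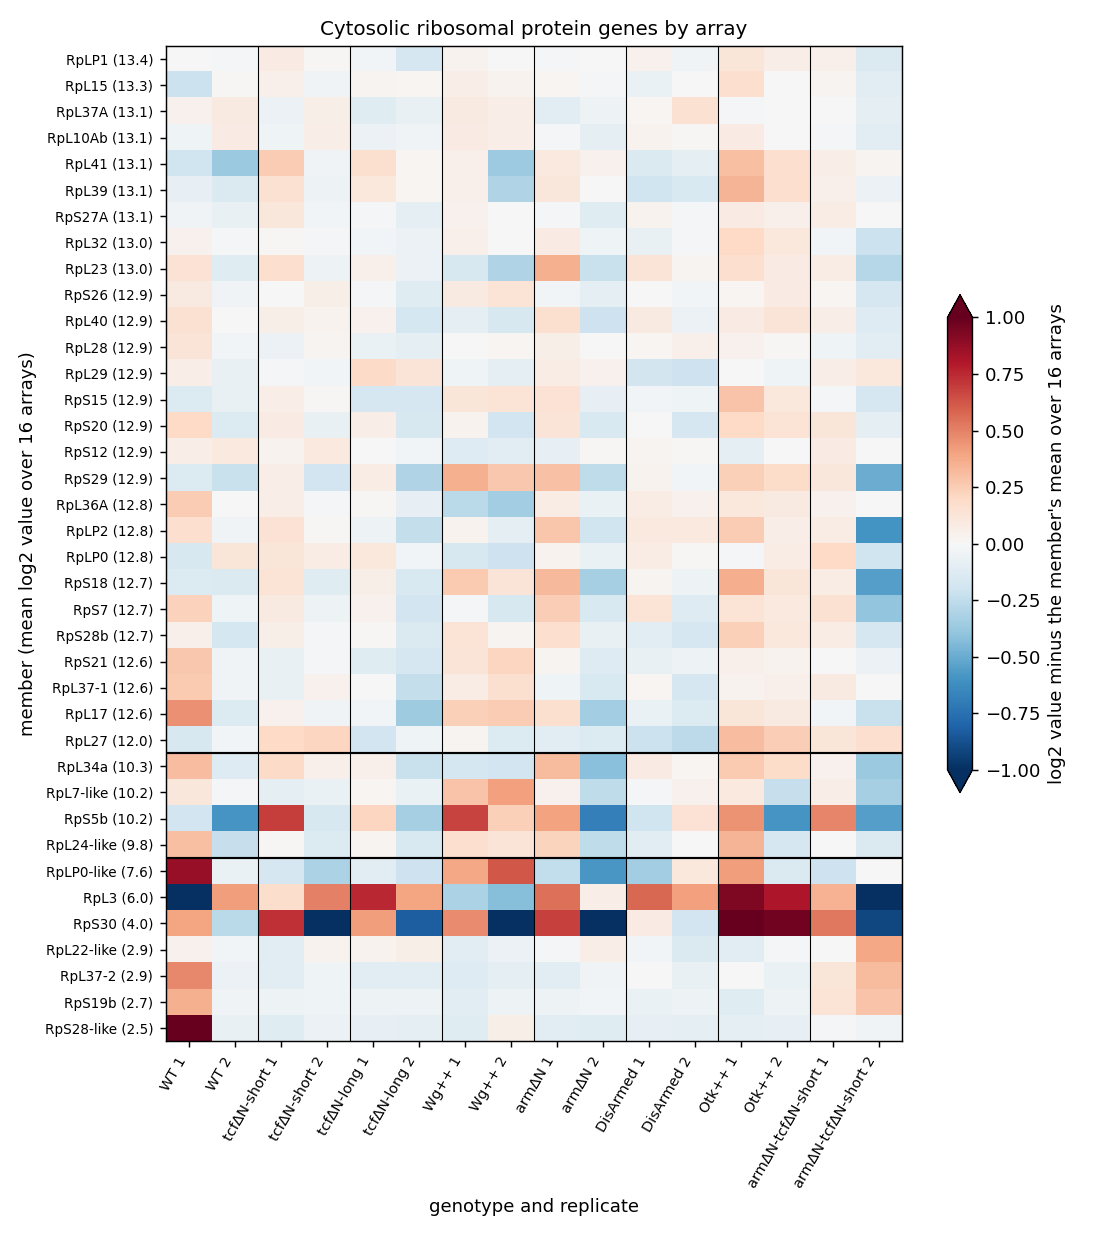
Heat map of the 38 tested members (rows, with the mean log2 value over the 16 arrays in brackets) on each array (columns, by genotype and replicate number). Colour gives the log2 value minus the member's own mean, with the scale ending at 1 in both directions, and horizontal lines separate means above 11, from 9 to 11 and below 9. Rows above the first line are nearly without colour, and the strongest colours are in a few of the dimmer rows, among them RpL3, RpS30, RpS5b and RpLP0-like.

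The normalized log2 values of the 27 bright members hardly moved across the 8 genotypes. RpL32, a large subunit gene also known as rp49 and widely used as the reference for RT-PCR in flies (chromosome 3R, 30045229 to 30046161, Release 6 plus ISO1 MT assembly), is an example. It read 13.09 and 13.03 in WT, 13.09 and 13.04 in Wg++, 13.13 and 13.002 in arm∆N, and 12.97 and 13.03 in DisArmed. In tcf∆N-short it read 13.05 and 13.03, in tcf∆N-long 13.02 and 12.99, in arm∆N-tcf∆N-short 13.02 and 12.83, and in Otk++ 13.24 and 13.15. Only the Otk++ arrays exceeded all others, and the lowest array was 1 of the pair from arm∆N-tcf∆N-short. The Wg++ against WT difference was 0.01 ± 0.14 (log2, SE, 95% interval -0.30 to 0.31, n = 2 arrays per genotype, limma adjusted p = 0.98).

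The genotype means of all 27 bright members stayed within 1.5-fold of each other, from a range of 0.13 log2 units in RpL28 to 0.52 in RpL41. Among the 91 other genes with a mean above 11, 27.5% stayed within that range, and among all tested genes 14.7%. Spread between the arrays of a genotype was also small, with a median pooled SD of 0.091 for the bright members, 0.25 for the other bright genes and 0.30 for all tested genes. The smallest SD of genotype means belonged to RpL10Ab at 0.049, RpL28 at 0.050, RpS27A at 0.052, RpL15 at 0.057 and RpLP1 at 0.058. RpS27A and RpL40, which encode ubiquitin fused to a ribosomal protein and so supply ubiquitin as well, ranged over arrays from 12.94 to 13.17 and from 12.73 to 13.10. The stalk genes RpLP0, RpLP1 and RpLP2, whose products recruit the elongation factors, ranged from 12.55 to 12.96, from 13.19 to 13.48 and from 12.20 to 13.08. The lowest RpLP2 value came from replicate 2 of arm∆N-tcf∆N-short, and its other 15 values were 12.56 or higher. Of the genes with a mean above 12.5, a level chosen after the values were seen, 26 were members and only 9 were not. None of those 9 was called in any comparison with WT, and 1 of them was called in Wg++ against arm∆N. Members thus made up most of the top of the scale to which the arrays were normalized. The part of the normalization and of the top of the intensity scale in the small differences was not tested.

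A gene was called where its absolute fold change exceeded 1.5 at a false discovery rate (FDR) under 10% in limma. None of the 38 members was called in Wg++ against WT, where 40.8% of all tested genes were, 1665 of them higher and 1954 lower. At an unadjusted p under 0.05 there was 1 member (RpL36A), against 46.3% of all tested genes. In arm∆N against WT no member was called beside 19.6% of all genes, and 2 members (RpLP0-like and RpS28-like) against 29.5% of all genes had an unadjusted p under 0.05. The corresponding percentages called were 7.71% for tcf∆N-short, 3.72% for tcf∆N-long and 3.17% for arm∆N-tcf∆N-short, each with 0 members called by limma. Unadjusted p-values under 0.05 were found there for 1 member (RpL41), 0 members and 0 members, against 19.2%, 17.4% and 10.6% of all genes. In DisArmed and Otk++ only 0.598% and 0.327% of genes were called. At these shares, and at those of tcf∆N-long and arm∆N-tcf∆N-short, 0 called members of 38 are near the background. In DisArmed 0 members and in Otk++ 4 members (RpL41, RpL27, RpL39 and RpL3) had an unadjusted p under 0.05, against 7.54% and 16.8% of all genes. In tcf∆N-short against tcf∆N-long 3.19% of genes and no member were called, which is near the background too. RpL27 alone had an unadjusted p under 0.05 there, against 14% of genes. All these comparisons with WT share the same WT arrays.

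A test for a change in any genotype gave the same picture. At a 1% FDR, the F test of limma across all 7 transgenic genotypes and WT called 0 of 38 members and 12.3% of all tested genes. At an unadjusted p under 0.05 the F test had 1 member, RpL27, against 49.1% of all genes.

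**Figure D2:**
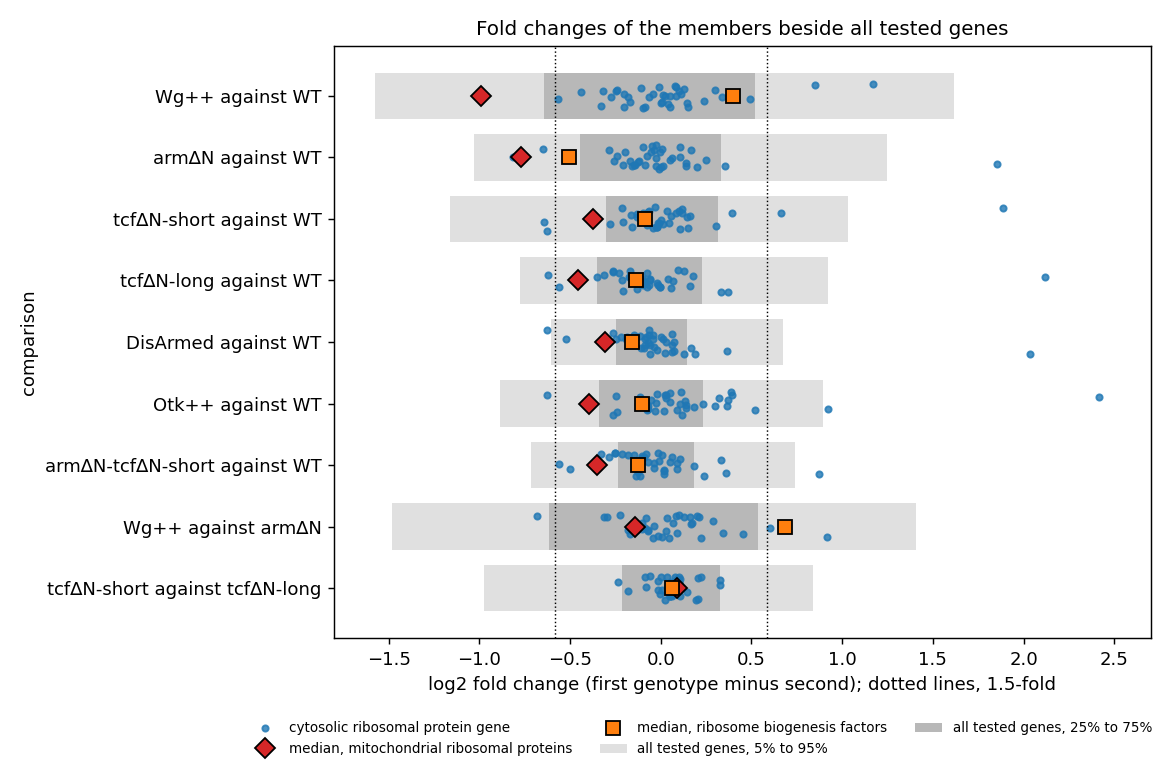
Log2 fold change (horizontal axis) of each of the 38 members in 9 comparisons (blue points), beside the range of all tested genes (grey bars) and the medians of 69 mitochondrial ribosomal protein genes (red diamonds) and 50 ribosome biogenesis factors (orange squares). Between 27 and 36 of the 38 members lie within the darker bar, the middle of all tested genes, in each comparison; the point far to the right in the comparisons of arm∆N, the TCF forms, DisArmed and Otk++ with WT is RpL3, and none of the points past the dotted 1.5-fold lines was called except RpLP0-like in Wg++ against arm∆N.

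The intervals of most members were also narrow. In Wg++ against WT the 95% interval lay wholly within 1.5-fold for 21 of 38 members, against 9.16% of all tested genes, and in arm∆N against WT for 27 members, against 10.1%. Over the other comparisons the number was between 22 and 28 of 38, against at most 17.5% of all genes. Of the 27 bright members it was 20 in Wg++ and 23 in arm∆N against WT, beside 8.79% and 17.6% of the 91 other bright genes. Elsewhere it was 19 to 24 of the bright members, beside 19.8% to 35.2% of the other bright genes. These sets differ in level, since 26 of the 27 bright members but only 9 of the 91 others had a mean above 12.5. Within the bright members the fold changes in Wg++ against WT ran from -0.44 to 0.49, with a median of 0.01. The median was 0.01 for the 14 large subunit genes, 0.08 for the 10 small subunit genes and -0.10 for the 3 stalk genes. By comparison, the 91 other bright genes had a median of -0.34, with 10 called higher and 25 lower, and all tested genes had a median of -0.11. In arm∆N against WT the bright members ran from -0.26 to 0.35.

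**Figure D3:**
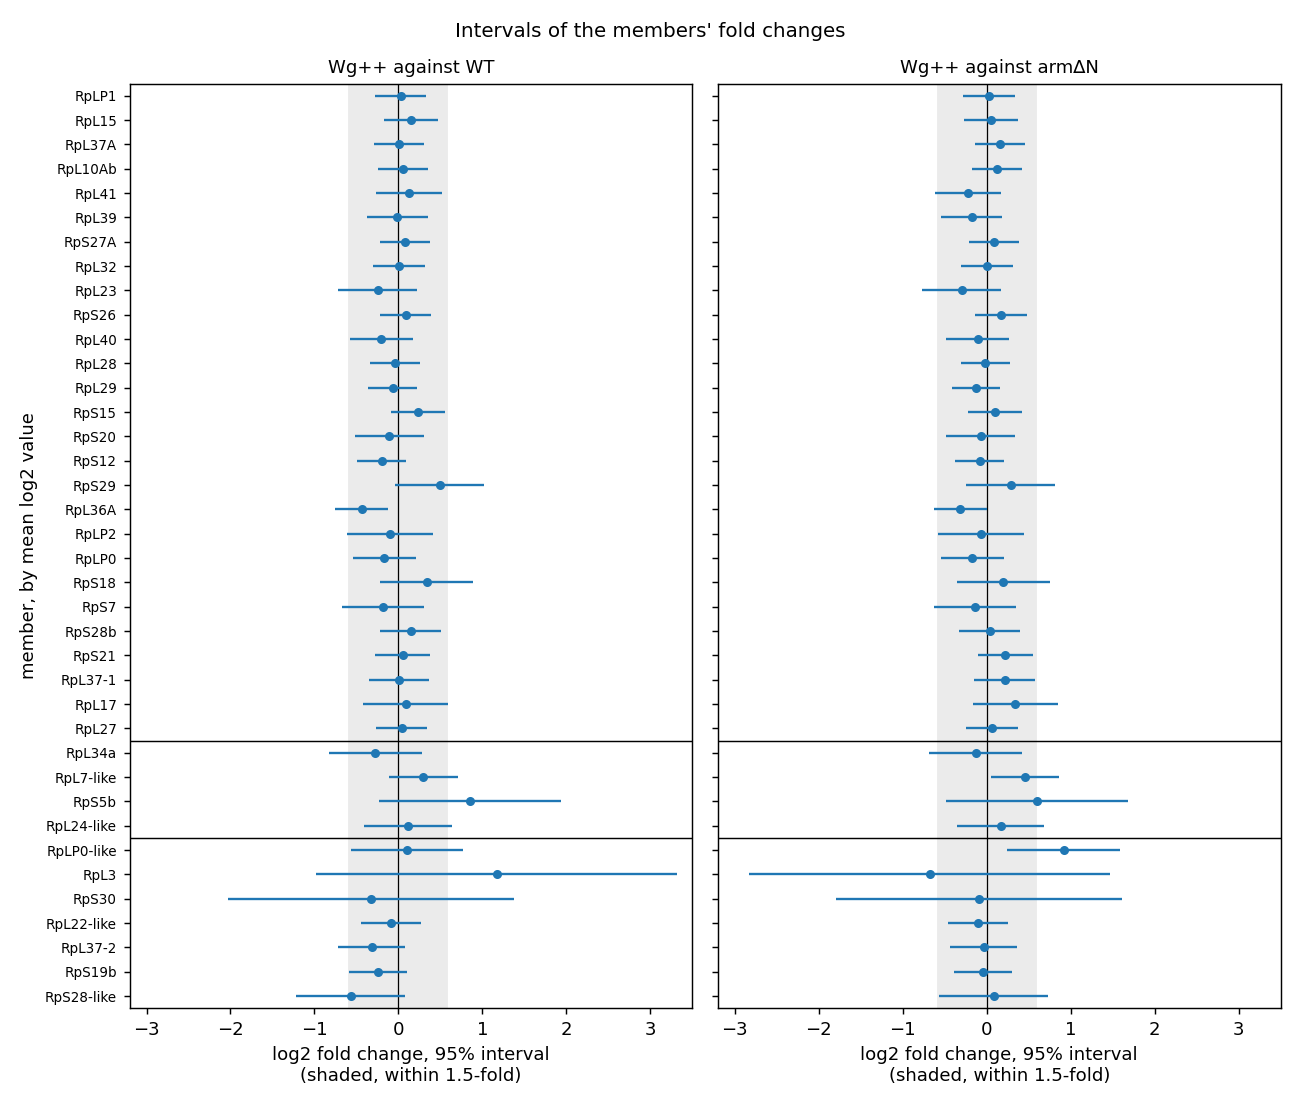
Log2 fold change and its 95% interval (horizontal axis) for each tested member, ordered by mean log2 value, in Wg++ against WT and in Wg++ against arm∆N. Shading marks changes within 1.5-fold, and the intervals of most bright members end inside it, while those of RpL3, RpS30 and RpS5b are wide.

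With no minimum on the fold change, 1 member passed in Wg++ against WT, where 45.1% of all genes did. This was RpL36A, which encodes a large subunit protein near the exit site for tRNA (chromosome 2L, 8041873 to 8042909). It read 12.57 and 12.49 in Wg++ against 13.10 and 12.85 in WT. On the remaining 12 arrays it read between 12.76 and 12.95, so both Wg++ arrays lay below all the others. The difference from WT was -0.44 ± 0.14 (limma adjusted p = 0.036), smaller than 1.5-fold, and that from arm∆N was -0.31 ± 0.14 (adjusted p = 0.12). The other comparisons with WT had 0 members past this rule by limma, beside 21.4% of genes in arm∆N, 7.88% in tcf∆N-short, 3.78% in tcf∆N-long and 3.18% in arm∆N-tcf∆N-short. DisArmed, Otk++ and tcf∆N-short against tcf∆N-long likewise had 0, beside 0.598%, 0.327% and 3.19%. The unadjusted counts given above apply to these too.

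At the other end was RpS29, a small subunit gene, with 13.23 and 13.15 in Wg++ against 12.74 and 12.66 in WT. Its values overlapped with those of arm∆N, at 13.18 and 12.63. The Wg++ difference from WT of 0.49 ± 0.24 did not pass (adjusted p = 0.14). Another bright RpS29 probeset, not used by the rule, read 12.91 and 12.66 in Wg++ against 12.59 and 12.46 in WT, a difference between means of 0.26. The difference of the probeset used passed once the arrays were centred on their medians (0.64, adjusted p = 0.056) or scaled by cyclic loess (0.71, adjusted p = 0.027). These scalings also moved the median of all 38 members in Wg++ against WT from 0.01 to 0.16 and 0.20, where the median of all tested genes had been -0.11.

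RpL27 had the lowest F test p of the members (adjusted p = 0.075), short of the 1% limit. It read 12.31 and 12.25 in Otk++, 12.21 and 12.22 in tcf∆N-short, and 12.13 and 12.17 in arm∆N-tcf∆N-short. In the other 5 genotypes it read between 11.74 and 12.03, so these 6 arrays lay above the remaining 10. The difference from WT was 0.37 ± 0.14 in Otk++ (limma adjusted p = 0.23) and 0.30 ± 0.14 in tcf∆N-short (adjusted p = 0.26). RpL41 and RpL39, which encode the smallest proteins of the large subunit, were highest in Otk++ as well. RpL41 read 13.39 and 13.26 there against 12.89 and 12.72 in WT, a difference of 0.52 ± 0.18 (adjusted p = 0.20), and RpL39 differed by 0.37 ± 0.16 (adjusted p = 0.29).

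The comparison of Wg++ with arm∆N, which sets the ligand against the active form of its effector, was the only one with a called member. RpLP0-like was higher in Wg++, 1 of 38 members beside 37.1% of all tested genes. This gene (chromosome 2R, 10098518 to 10099590) encodes the fly relative of yeast Mrt4, a nucleolar assembly factor that holds the place of the stalk protein P0 in the immature large subunit. It read 7.94 and 8.18 in Wg++ and 7.31 and 6.98 in arm∆N, a difference of 0.92 ± 0.30 (95% interval 0.25 to 1.59, limma adjusted p = 0.043). In WT it read 8.43 and 7.49, the widest pair of any genotype, which spanned both Wg++ values. In tcf∆N-short it read 7.39 and 7.24, in tcf∆N-long 7.45 and 7.35, in DisArmed 7.21 and 7.66, in Otk++ 7.97 and 7.41, and in arm∆N-tcf∆N-short 7.35 and 7.56. The lowest of the 16 arrays was replicate 2 of arm∆N and the highest replicate 1 of WT, and arm∆N differed from WT by -0.81 ± 0.30 (adjusted p = 0.10). The call in Wg++ against arm∆N was lost when either Wg++ array or replicate 2 of arm∆N was left out, with differences from 0.75 to 1.04 and adjusted p-values from 0.11 to 0.20.

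With no minimum on the fold change, RpL7-like joined it, so that 2 members passed beside 40.7% of all genes. The corresponding yeast protein, Rlp7, is a placeholder for L7 during large subunit assembly. RpL7-like read 10.46 and 10.59 in Wg++, above all the other 14 arrays, 10.22 and 9.92 in arm∆N, and 10.29 and 10.17 in WT. The difference was 0.46 ± 0.18 against arm∆N (limma adjusted p = 0.085) and 0.30 ± 0.18 against WT (adjusted p = 0.24). RpL24-like, the relative of the yeast assembly factor Rlp24, read 9.99 and 9.95 in Wg++ and 10.04 and 9.56 in arm∆N, and these overlapped (0.17 ± 0.24, adjusted p = 0.62). At an unadjusted p under 0.05 the comparison had these 2 members, RpLP0-like and RpL7-like, against 43.1% of all genes. Among the bright members no structural gene was called, and their differences between Wg++ and arm∆N ran from -0.31 (RpL36A) to 0.34 (RpL17).

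**Figure D4:**
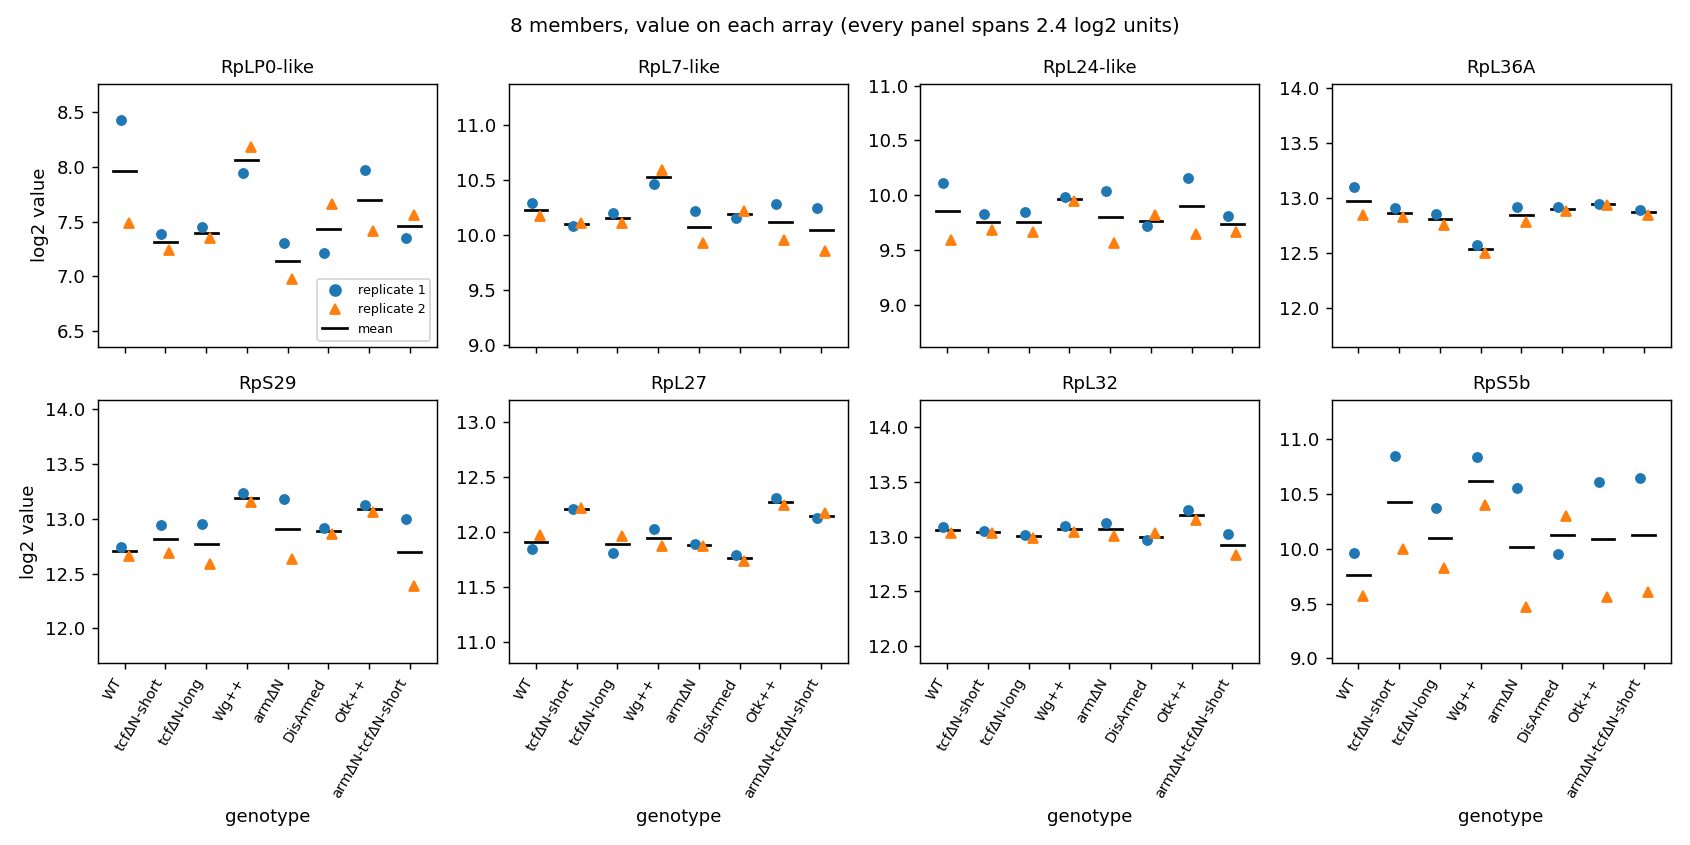
Log2 value on each array for 8 members, by genotype (blue circles, replicate 1; orange triangles, replicate 2; black lines, mean of the pair), with the same span of 2.4 log2 units in each panel. RpL36A is lowest and RpL7-like highest in both Wg++ arrays, RpL32 is level, and in RpS5b the arrays of a pair often lie further apart than the genotype means.

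RpS5b, a small subunit gene enriched in the ovary, varied more than the bright members. It read 10.84 and 10.40 in Wg++ against 9.96 and 9.57 in WT, a difference of 0.85 ± 0.49 that did not pass (limma adjusted p = 0.20). It also read 10.85 and 9.999 in tcf∆N-short, 10.56 and 9.47 in arm∆N, 10.37 and 9.82 in tcf∆N-long, 10.61 and 9.56 in Otk++, and 10.64 and 9.61 in arm∆N-tcf∆N-short. DisArmed, at 9.96 and 10.30, was the only genotype in which replicate 2 was the higher. A pair of arrays differed by up to 1.08, more than the range of 0.85 over the genotype means. The maternal egg markers moved in part with it, with means of 8.26 and 6.71 in tcf∆N-short and 7.18 and 6.41 in arm∆N, but 6.27 and 6.18 in Otk++, and their part in the RpS5b values was not tested.

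The large single values among the members came from dim probesets. For RpL3, a core protein near the catalytic centre of the ribosome, the most variable probeset was the one used by the rule. It read 2.5001 and 6.42 in the WT arrays, and between 4.31 and 6.94 elsewhere, so that differences from WT as large as 2.41 ± 0.97 in Otk++ rested on 1 WT array (adjusted p = 0.26). A brighter RpL3 probeset read between 12.62 and 12.94 on all arrays. RpS30, fused to a ubiquitin-like protein, was represented by a probeset at 2.95 to 4.99, and its other probeset read 11.72 to 12.68. RpS28-like reached 3.63 in replicate 1 of WT and was between 2.36 and 2.54 on the other 15 arrays. RpL22-like, RpL37-2 and RpS19b, duplicates known from the germ line, did not exceed 3.34 on any array. Replicate 1 of WT was the highest array for RpLP0-like, RpL37-2, RpS19b and RpS28-like and the lowest for RpL3. Among the 27 bright members it was the highest array for 6 (RpL17, RpL28, RpL36A, RpL37-1, RpS20 and RpS21) and the lowest for 1 (RpL15). When replicate 2 of WT was left out, this array alone stood for WT. The members then called against WT were RpL3, RpL37-2, RpLP0-like or RpS28-like, and none was a bright member.

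Lists of other genes of protein synthesis were read beside the shares of all tested genes called, 40.8% in Wg++ and 19.6% in arm∆N against WT. Of 69 mitochondrial ribosomal protein genes, which build the separate ribosome of that organelle, 50 fell and 1 rose in Wg++ (median -0.99), and 44 fell and 1 rose in arm∆N (median -0.77), so that 73.9% and 65.2% of the list were called. For example, mRpL20 had a mean of 6.25 in Wg++, 6.76 in arm∆N and 8.05 in WT (differences from WT of -1.81 ± 0.25 and -1.29 ± 0.25, limma adjusted p = 0.00097 and 0.0094). Of 50 ribosome biogenesis factors, the nucleolar proteins that process ribosomal RNA and assemble the subunits, 20 rose and 12 fell in Wg++ (median 0.40), while none rose and 18 fell in arm∆N (median -0.50). These are 64% and 36% of the list. Between Wg++ and arm∆N 28 of them were higher in Wg++ and none lower (median 0.68), which is 56% of the list beside 37.1% of all tested genes, and the direction of RpLP0-like and RpL7-like. In the same comparison 7 of 17 maternal egg markers were higher in Wg++ and 0 lower (median 1.24). These are 41.2% of the list, near the share of all tested genes. Lower in Wg++ were 4 of 6 midgut markers (median -1.13) and 3 of 4 muscle markers (median -1.30). Of the epidermis, neuron and haemocyte markers 2 of 6, 1 of 5 and 1 of 7 were called, all of them lower. The part of these cell and egg markers in the biogenesis and RpLP0-like differences was not tested. RIOK1, a kinase of small subunit maturation, was higher in Wg++ than in arm∆N by 1.83 ± 0.28 (adjusted p = 0.0035), and Rrp6, an exosome nuclease, by 1.59 ± 0.29 (adjusted p = 0.0045). Between these genotypes the 38 members had a median of 0.02.

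Of 14 subunits of RNA polymerases I and III, which transcribe ribosomal RNA and tRNA, 2 rose and 7 fell in Wg++ and 9 fell in arm∆N, 64.3% of the list in both, with Polr1B at -1.31 ± 0.21 and -1.60 ± 0.21 (limma adjusted p = 0.0016 and 0.0014). Of 29 initiation factors 6 were higher and 6 lower in Wg++ and 1 was higher and 5 lower in arm∆N, and these shares, 41.4% and 20.7%, were at the background of all genes. Of 5 elongation factors 1 was called in each, 20% of the list, which is below the background in Wg++ and near it in arm∆N. This was eEF1alpha2, which delivers aminoacyl-tRNA to the ribosome, at -1.46 ± 0.26 in Wg++ and -0.98 ± 0.26 in arm∆N. Among 14 regulators of ribosomal protein synthesis, 21.4% were called in arm∆N, near the background of 19.6% of all genes. In Wg++ 8 of the 14 rose and 2 fell, 71.4% of the list. These included the transcription factors Trf2, which acts at promoters of ribosomal protein genes (1.92 ± 0.36, adjusted p = 0.0030), and M1BP (1.27 ± 0.31, adjusted p = 0.010). Pdcd4, whose mammalian counterpart inhibits the helicase eIF4A, rose by 1.75 ± 0.22 (adjusted p = 0.00075), and S6k, the kinase of ribosomal protein S6, fell by 1.14 ± 0.20 (adjusted p = 0.0021). Of 17 maternal egg markers 9 also rose and 1 fell in Wg++ against WT (median 1.99), 58.8% of the list beside 40.8% of all tested genes. Their part in the regulator differences was not tested. Among embryos of the genotypes tcf∆N-short, tcf∆N-long, DisArmed, Otk++ and arm∆N-tcf∆N-short, at most 2 mitochondrial ribosomal protein genes and no biogenesis factor were called against WT in either direction, where the shares of all genes called were between 0.327% and 7.71%. The median of the mitochondrial list was nonetheless below 0 in each, from -0.31 in DisArmed to -0.46 in tcf∆N-long. At an unadjusted p under 0.05 there were 10 to 37 of the 69 mitochondrial genes and 3 to 9 of the 50 biogenesis factors in these genotypes, against 7.54% to 19.2% of all genes.

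The small movements of the bright members were shared in part. Over the 16 arrays the median of their 351 pairwise correlations (Pearson's r) was 0.35, and 77.8% of the pairs were above 0, beside 0.08 and 54.6% for the 91 other bright genes. The most similar pairs were RpS18 and RpS29, RpL41 and RpL39, and RpL17 and RpS21, with r of 0.95, 0.91 and 0.90. These are descriptions over arrays that share hybridisation and scaling. The median of the bright members per array lay between 12.76 in replicate 2 of tcf∆N-long and 13.05 in replicate 1 of Otk++, and both Otk++ arrays were above the WT arrays at 12.996 and 12.85. In Otk++ against WT the bright members had a median of 0.09, which was less than the 0.15 between the medians of the WT arrays.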

How the data were processed

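The deposited values were log2 intensities of 18952 probesets, which the authors had obtained with GC-RMA from Affymetrix Drosophila 2 arrays (version not given in the sources used here). The depth of an array has no count, and precision was limited by 2 arrays per genotype. Probesets were named through the platform annotation and a RefSeq table of genes (Release 6 plus ISO1 MT). Of them, 13647 had 1 gene, 402 had several and 4903 had none. As in the study's methods, each of 11893 genes was represented by its probeset of largest interquartile range, and the 8860 genes above 2.5 on at least 2 arrays were tested. All 16 arrays were fitted in limma 3.58.1 (R 4.3.3) with 1 coefficient per genotype and eBayes (8 residual and 2.72 prior degrees of freedom), with Benjamini-Hochberg adjustment over all tested genes and an absolute fold change above 1.5 at an FDR under 10% as the call. Errors beside fold changes are standard errors and SDs refer to arrays of a genotype. The labels call the arrays biological replicates, and p-values set a difference of genotype means against the spread between them, pooled over all genotypes.

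Members and gene lists were chosen with earlier results of these data known. Genes were named if called, if belonging to duplicate, stalk or ubiquitin fusion genes, if most or least variable, if among the 3 highest or lowest members of a comparison, or, in other lists, if lowest in adjusted p in Wg++ or arm∆N. The most similar pairs and the genes named by replicate number were picked after their values were seen. Lists held ribosome biogenesis factors (53 of 55 symbols in the gene table), translation factors, polymerase subunits, regulators, mitochondrial ribosomal proteins and cell type markers. No list was tested as a set. Alternatives were filters, the probeset rule, scaling, the prior, a replicate block, 2-genotype fits, call rules and leaving out each array. The steps were tested on simulated data. Promoter and protein sequences were not analysed here.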

Additional observations from a re-analysis of the deposited data

How the results depend on the processing

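No called difference was reversed under any alternative. Other scaling moved the members' median in Wg++ against WT to 0.16 after centring and 0.20 after cyclic loess, and in Wg++ against arm∆N to 0.23 after cyclic loess, and under both scalings 1 member (RpS29) was called in Wg++ against WT. In the same comparison 1 member was called in the fit of only the 2 genotypes compared (RpS5b) and with no fold minimum (RpL36A). In Wg++ against arm∆N, 2 members were called with only the 2 genotypes (RpL3 and RpLP0-like) and with no fold minimum (RpL7-like and RpLP0-like), and 0 without the -like genes. With no filter on low values 1 member (RpL27) passed the F test. With the replicate block, 1 member was called in Wg++ against WT (RpS5b, 0.85, adjusted p = 0.046) and 1 in arm∆N against WT (RpLP0-like, -0.81, adjusted p = 0.079), and no other member's call in a comparison changed. The main fit did not pair the arrays by number, because no label ties a number to a shared day or batch. The deviations of same-numbered arrays nonetheless went together in most pairs of genotypes. They correlated between -0.53 and 0.68, above 0.1 in 20 of 28 pairs, and the main fit takes no account of this. The causes of these changes were not tested.

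Leaving out 1 array at a time gave 0 to 3 called members in Wg++, arm∆N and tcf∆N-short against WT, 0 to 4 in tcf∆N-long, 0 to 2 in DisArmed, Otk++ and arm∆N-tcf∆N-short, 0 to 2 in Wg++ against arm∆N, and 0 to 1 in the F test. The highest counts against WT and in the F test (RpS28-like) came without replicate 2 of WT, and with 1 or the other Otk++ array left out RpLP0-like was called in arm∆N against WT. The members' medians, all near 0, ran from -0.16 to 0.15 over these fits, and their sign varied except in tcf∆N-long against WT (below 0 throughout) and tcf∆N-short against tcf∆N-long (above 0 throughout). Leaving out replicate 1 of arm∆N added RpL7-like in Wg++ against arm∆N, and without its replicate 2 RpL23 was called there instead of RpLP0-like. The genes called over the whole array moved too, in Otk++ against WT from 29 to 839 without replicate 2 of WT and to 402 with the replicate block. Bright members lie near the top of the scale and 7 dim ones in its lower part.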

Other observations

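The replicate number went with the level of the members. The median difference of replicate 1 from replicate 2 over the 38 members was above 0 in all 8 genotypes, from 0.03 in DisArmed to 0.16 in WT, while for all tested genes it was between -0.01 and 0.07. In every genotype 24 to 32 of the 38 members were higher in replicate 1. Of the members, 11 (28.9%) were higher in replicate 1 in all 8 genotypes and 0 were lower in all, against 4.58% and 3.62% of all tested genes. These 11 included RpS7, RpS18, RpS20, RpS29, RpL23 and RpLP2, with median differences of 0.25, 0.23, 0.22, 0.17, 0.18 and 0.19. The labels do not say that a number marks a shared day or batch, the pattern was noticed in these data, and its origin was not tested.

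In the comparisons with WT, RpL41 was among the 3 highest members in arm∆N, tcf∆N-short, tcf∆N-long, Otk++ and arm∆N-tcf∆N-short, and in none was it called. Its log2 values there ran from 13.06 to 13.39, all above the WT values of 12.89 and 12.72, and these comparisons share the WT arrays.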
